A study of Mus musculus with 6 samples.

Results

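Transcripts of 36 genes of mitosis and the cyclin cycle were examined in 6 RNA-seq libraries of sorted mouse neutrophils. The members were chosen by name, as cyclins, mitotic kinases, kinetochore, spindle and cytokinesis genes, and all 36 were found among the 41388 genes of the deposited tables. All cells came from bone marrow of C57BL/6 mice, carried the membrane potential dye DiBAC4(3) at 250 nM and had received the calcium ionophore ionomycin at 100 nM. From 2 to 4 minutes afterwards, 20000 cells that had depolarized and 20000 that were polarized were sorted and lysed, giving 3 depolarized and 3 polarized libraries. Per the series' design text these are pairs of biological replicates, named A, B and C below in the order of the codes in their titles. The sources used here do not give the number of mice behind a pair. The depolarized library of pair B is the one whose title reads run 1 in place of run 2, a label with no stated meaning. Values of single libraries are given in the order A, B, C. All groups were stimulated, so the comparison is between 2 responses to the same agent and not between stimulated and resting cells.

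Progress through the cell cycle is driven by cyclins that bind and switch on cyclin-dependent kinases: E cyclins act at entry into S phase, cyclin A in S phase and G2, and B cyclins with Cdk1 at entry into mitosis. Many mitotic genes are kept silent in resting cells by the DREAM repressor complex, which sits at a promoter element called the cell cycle genes homology region (CHR), and are switched on late in the cycle by B-MYB and FOXM1. In the neutrophil lineage, myeloblasts, promyelocytes and myelocytes divide, whereas metamyelocytes, band cells and segmented neutrophils do not.

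Depth was between 16904969 and 20381489 counts per library. All 11 markers of mature neutrophils examined, among them S100a8, S100a9 and Retnlg, had counts, and summed to 165439.4 to 225489 CPM (counts scaled to library size) per library. For the members, polarized library C lay apart from the rest: 26 of the 36 had their highest CPM there, against 12.3% of all genes with a count. Results are therefore also given without pair C.

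Mitotic transcripts with a low mean CPM were scarcer in depolarized cells, while the members with the highest mean CPM lay close together in both populations. The mean CPM was lower in depolarized cells for 33 of 36 members, against 45.8% of the 21979 genes with a count in any library. In 26 of 36 the depolarized value was the lower one in all 3 pairs, against 7.23% of those genes. The groups did not overlap, with all polarized libraries above all depolarized ones, for 15 members, against 2.85% of genes, and 1 member (Kif23) lay the other way round. In edgeR's quasi-likelihood fit, blocked by pair, 6 members fell at an adjusted p under 0.05, 15 were tested and not called, and 15 had too few counts to be tested. None of the 21 tested members was called higher, and 0 were above 0 at an unadjusted p under 0.05 (0 called by DESeq2 and limma too). Over all 9971 genes tested, 0.241% were called lower and 0.0802% higher, so the 6 members were 25.0% of the 24 genes called lower. A low-level member passes the filter on counts only through the group where it is high, so the share among tested members is not a measure of the whole set. In bulk RNA of sorted cells, fewer cells with a transcript and less transcript per cell cannot be told apart.

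In edgeR the calls rest on the pairing. Without the pairs as a block edgeR called 0 genes in either direction (511 genes and 12 members at an unadjusted p under 0.05), and the smallest adjusted p of a member was 0.152. The fitted log2 fold changes of the 6 members were close to those with the block, at -3.66 for Cdk1, -3.46 for Birc5, -2.77 for Top2a, -3.74 for Ube2c, -3.39 for Pbk and -4.38 for Kif22. DESeq2 called the same 6 members lower with the block, where it called 0.231% of all genes lower and 0.16% higher, and without it (0.181% lower, 0.0501% higher). The same 6 were called by robust edgeR (0.211% of genes lower, 0.0903% higher), and limma voom with the block called these 6 and Spc25 (0.261% lower, 0.1% higher). Filters changed which members could be tested: with no filter 12 were called lower (0.437% of genes lower, 0.227% higher), with a mean of at least 0.5 CPM 7 (0.341% and 0.181%), and with a mean of at least 5 CPM, which leaves 4 members, 0 (0.116% and 0.0997%).

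**Figure D1:**
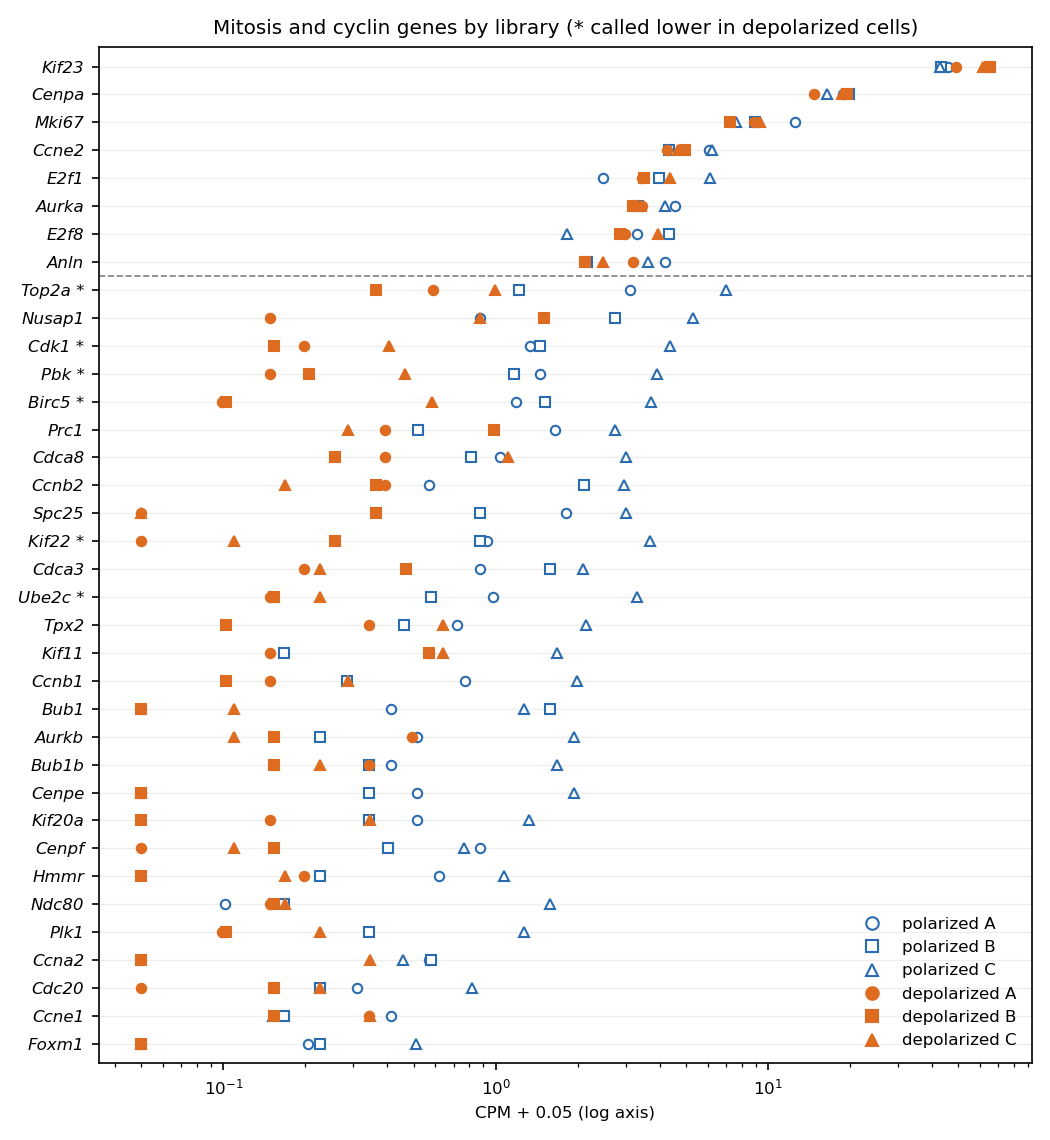
CPM of each of the 36 members in each library, with 0.05 added so that libraries without a count can be shown on the log axis. Open blue symbols are polarized and filled orange symbols depolarized libraries, shapes are pairs, and members are ordered by their mean over all libraries. Above the dashed line (mean of at least 2.91 CPM) the groups lie close together; below it (mean of at most 2.16 CPM) most depolarized values lie to the left.

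The contrast between abundant and scarce members was visible in sums. Ordered by mean CPM over all 6 libraries, the members have 8 with means from 2.91 (Anln) to 51.2 (Kif23) and 28 from 2.16 (Top2a) downwards. This division was made after the values were seen and is a description. The mean includes the depolarized libraries, so a member that falls is moved towards the scarce set by its own fall. By the polarized mean alone, Top2a (3.72 CPM) stood above Anln (3.27 CPM) and E2f8 (3.11 CPM). CPM also takes no account of gene length. Per kilobase of gene length, Ccnb2 (mean of all libraries 0.676 RPKM) and the called Pbk (0.657) stood above E2f8 (0.582) and Anln (0.537). The 8 abundant members summed to 97.2, 89.8 and 88.5 CPM in polarized and to 89.5, 108 and 108 CPM in depolarized cells. The other 28 summed to 22.0, 20.1 and 64.3 CPM in polarized and 4.12, 5.89 and 8.16 CPM in depolarized cells. Within the pairs the polarized sum was thus 5.35, 3.42 and 7.88 times the depolarized one, and all depolarized values lay below all polarized ones. These 28 genes held 2030 counts in all polarized libraries together and 335 in all depolarized ones, and 62.1% of the polarized counts came from pair C. Among tested genes with a mean of up to 2.16 CPM, 0.430% were called lower (11 of 2559, of which 6 are members), and above it 0.175%.

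Among the cyclins and their kinase, Cdk1 carried the clearest difference. Cdk1 (ENSMUSG00000019942, chromosome 10, 69336635 to 69352938, minus strand, GRCm38) is the kinase that B cyclins activate to start mitosis. Its level was 1.29, 1.41 and 4.33 CPM in polarized and 0.147, 0.104 and 0.355 CPM in depolarized cells. Every polarized library was above every depolarized one, and pair C was the highest in both groups. The fitted log2 fold change was -3.55 ± 0.55 (SE), 11.7-fold lower in depolarized cells, with an edgeR adjusted p of 0.00782. The cyclin B genes, whose products are the partners of Cdk1, were below the filter. Ccnb2 held 10, 35 and 57 counts in polarized and 7, 6 and 2 in depolarized cells, so its groups did not overlap. Ccnb1 held 14, 4 and 38 counts against 2, 1 and 4, with polarized B and depolarized C at the same count. Ccna2, the S phase and G2 cyclin, had 10, 9 and 8 counts in polarized and 0, 0 and 5 in depolarized cells, again without overlap. Both E cyclins, which act earlier in the cycle, gave another picture. Ccne2 was at 6.00, 4.29 and 6.17 CPM in polarized and 4.22, 4.90 and 4.61 CPM in depolarized cells, overlapping and not called (log2 fold change -0.32 ± 0.29, SE). Ccne1 had 7, 2 and 2 counts against 6, 2 and 5, overlapping, and counting error alone allowed a ratio of polarized to depolarized level between 0.346 and 2.07. The summed level of all 6 genes was 9.42, 8.63 and 15.9 CPM against 5.10, 5.47 and 5.92 CPM, and most of the depolarized level was Ccne2.

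Of the transcription factors of the cycle, none was called. E2f1, which activates S phase genes, was at 2.43, 3.93 and 6.07 CPM in polarized and 3.39, 3.44 and 4.32 CPM in depolarized cells. E2f8, an atypical E2F that represses its targets, was at 3.26, 4.29 and 1.78 CPM against 2.94, 2.81 and 3.90 CPM. Both overlapped between the groups, with log2 fold changes of -0.15 ± 0.32 and 0.04 ± 0.36 (SE) that change sign without pair C (0.15 and -0.36). Foxm1, the activator of late mitotic genes, was the scarcest member with 3, 3 and 9 counts in polarized cells and 0 in all depolarized libraries. Set against a floor of 3 counts in the whole depolarized group, this is 5.05-fold lower there. The exact binomial lower limit (95%) was 3.62-fold.

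Mitotic kinase and checkpoint genes differed in level more than in direction. Pbk (chromosome 14, 65805837 to 65817822), which encodes a mitotic serine/threonine kinase, was at 1.4, 1.12 and 3.87 CPM in polarized and 0.0981, 0.156 and 0.414 CPM in depolarized cells. It fell by 3.32 on the log2 scale (SE 0.56, edgeR adjusted p 0.0121) with no overlap of the groups. Bub1, a kinase of the spindle checkpoint, held 7, 26 and 24 counts in polarized cells and 0, 0 and 1 in depolarized ones. The ratio of its group sums was 57.5, and counting error alone allowed 9.92 to 2311 (exact binomial, 95%), and it stayed below the filter. Bub1b (7, 5 and 32 against 6, 2 and 3 counts), Aurkb (9, 3 and 37 against 9, 2 and 1) and Plk1 (1, 5 and 24 against 1, 1 and 3) had a polarized excess mainly in pair C and overlapped between the groups. Aurka, the kinase of the spindle poles, is among the abundant members and was at 4.5, 3.29 and 4.13 CPM in polarized and 3.39, 3.13 and 3.37 CPM in depolarized cells, with a log2 fold change of -0.33 ± 0.31 (SE).

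The ubiquitin ligase of mitosis, the anaphase-promoting complex (APC/C), and its substrates were represented by 3 members that were all lower on average in depolarized cells. Ube2c (chromosome 2, 164769898 to 164778822), the conjugating enzyme that starts ubiquitin chains for the APC/C, was at 0.931, 0.528 and 3.26 CPM in polarized and 0.0981, 0.104 and 0.177 CPM in depolarized cells. It fell by 3.45 on the log2 scale (SE 0.68, edgeR adjusted p 0.0393), and 22.8% of its exon bases lie opposite exons of Tnnc2, which had 0 counts. Cdc20, the activator of the APC/C at anaphase, had 5, 3 and 15 counts against 0, 2 and 3. Cdca3, a degradation target needed for mitotic entry, had 16, 26 and 40 counts against 3, 8 and 3 with no overlap, and was not called (log2 fold change -2.60 ± 0.61, SE, edgeR adjusted p 0.108).

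The chromosomal passenger complex, which brings Aurora B to centromeres and later to the midzone, was represented by Birc5 (survivin) and Cdca8 (borealin). Birc5 (chromosome 11, 117849251 to 117855743) was at 1.14, 1.47 and 3.67 CPM in polarized and 0.0491, 0.0521 and 0.532 CPM in depolarized cells. The 2 lowest values are 1 count each, and the groups did not overlap. It fell by 3.65 on the log2 scale (SE 0.60, edgeR adjusted p 0.0109). Cdca8 was at 0.983, 0.763 and 2.96 CPM against 0.343, 0.208 and 1.06 CPM, lower within each pair but overlapping between groups, and was not called (log2 fold change -1.66 ± 0.52, SE, edgeR adjusted p 0.344).

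Centromere and kinetochore genes split between one abundant member and 4 scarce ones. Cenpa, the histone H3 variant that marks centromeric chromatin, was at 18.8, 19.8 and 16.4 CPM in polarized and 14.7, 19.4 and 18.6 CPM in depolarized cells. The groups overlapped, with depolarized A below all polarized libraries, and the log2 fold change was -0.14 with a 95% interval of -0.56 to 0.29. The kinetochore motor gene Cenpe, by contrast, had 9, 5 and 37 counts in polarized cells and 0 in each depolarized library. That is 17.2-fold lower by the same floor, with an exact binomial lower limit (95%) of 13.5-fold. Cenpf, a large protein of the outer kinetochore, had 16, 6 and 14 counts against 0, 2 and 1. Spc25 and Ndc80 are subunits of the complex that ties kinetochores to microtubules. Spc25 had 34, 14 and 58 counts against 0, 6 and 0, without overlap, and was not called (log2 fold change -4.06 ± 0.90, SE, edgeR adjusted p 0.0787), though limma voom called it (adjusted p 0.0158). Ndc80 had 1, 2 and 30 counts against 2, 2 and 2, so its difference rested on the polarized library of pair C alone.

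Of 5 spindle genes 1 was called, 3 were tested and not called and 1 was below the filter; 3 of the 5 overlapped between the groups. Kif22 (chromosome 7, 127027732 to 127042420), a chromokinesin that pushes chromosome arms outwards, was at 0.880, 0.822 and 3.62 CPM in polarized and 0, 0.208 and 0.0592 CPM in depolarized cells. The groups did not overlap, and it fell by 4.14 on the log2 scale (SE 0.81, edgeR adjusted p 0.0393). Nusap1, which bundles microtubules near chromosomes, was at 0.828, 2.70 and 5.25 CPM against 0.0981, 1.46 and 0.828 CPM. Lower within each pair but overlapping between groups, it was not called (log2 fold change -2.06 ± 0.50, SE, edgeR adjusted p 0.127). The Aurora A activator Tpx2 had a log2 fold change of -1.85 ± 0.62 (SE, edgeR adjusted p 0.406). Kif11, the motor that separates spindle poles, had 10, 2 and 32 counts against 2, 10 and 10 and lay the other way in pair B. Hmmr, a microtubule-associated protein, had 11, 3 and 20 counts against 3, 0 and 2.

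Genes of the central spindle and cytokinesis did not move together. Kif23, which encodes the kinesin of centralspindlin, was the most abundant member with 45.6, 43.2 and 42.8 CPM in polarized and 49.0, 65.0 and 61.7 CPM in depolarized cells. All depolarized libraries were above all polarized ones, as for 7.28% of tested genes. The log2 fold change was 0.34 with a 95% interval of -0.04 to 0.72, and Kif23 was not called (edgeR adjusted p 0.853). Without pair C it was called higher (0.36, edgeR adjusted p 0.0482), in a fit that called 4.95% of all genes higher. Per kilobase of gene length Kif23 had a mean of 12.8 RPKM in polarized and 17.1 RPKM in depolarized cells, whereas Racgap1, the other centralspindlin subunit, looked up after the values of Kif23 were seen, had 0.107 and 0.0680 RPKM. Kif23 alone made up 34.2% of all member counts in polarized and 54.3% in depolarized cells. Anln, an actin-binding scaffold of the contractile ring, was at 4.14, 2.11 and 3.57 CPM against 3.14, 2.08 and 2.43 CPM (log2 fold change -0.40 ± 0.34, SE). Prc1, which bundles midzone microtubules, had 31, 8 and 53 counts against 7, 18 and 4 and lay the other way in pair B. Kif20a, a midzone kinesin, had 9, 5 and 25 counts against 2, 0 and 5, and 33.2% of its exon bases lie opposite exons of Cdc23, which held 595 counts.

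The 2 members of mitotic chromatin, often used side by side as proliferation markers, gave different values, a contrast that was not itself tested. Top2a (chromosome 11, 98992943 to 99024189), the topoisomerase that untangles sister chromatids, was at 3.05, 1.17 and 6.93 CPM in polarized and 0.540, 0.313 and 0.946 CPM in depolarized cells. It fell by 2.57 on the log2 scale (SE 0.43, edgeR adjusted p 0.0121) and did not overlap. Mki67, which encodes the Ki-67 coat protein of mitotic chromosomes, was at 12.5, 8.87 and 7.6 CPM in polarized and 8.83, 7.19 and 9.29 CPM in depolarized cells. In pair C, where Top2a was highest in polarized cells, Mki67 was at its lowest polarized value and below the depolarized library of its pair. Its log2 fold change was -0.24 with a 95% interval of -0.75 to 0.27.

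**Figure D2:**
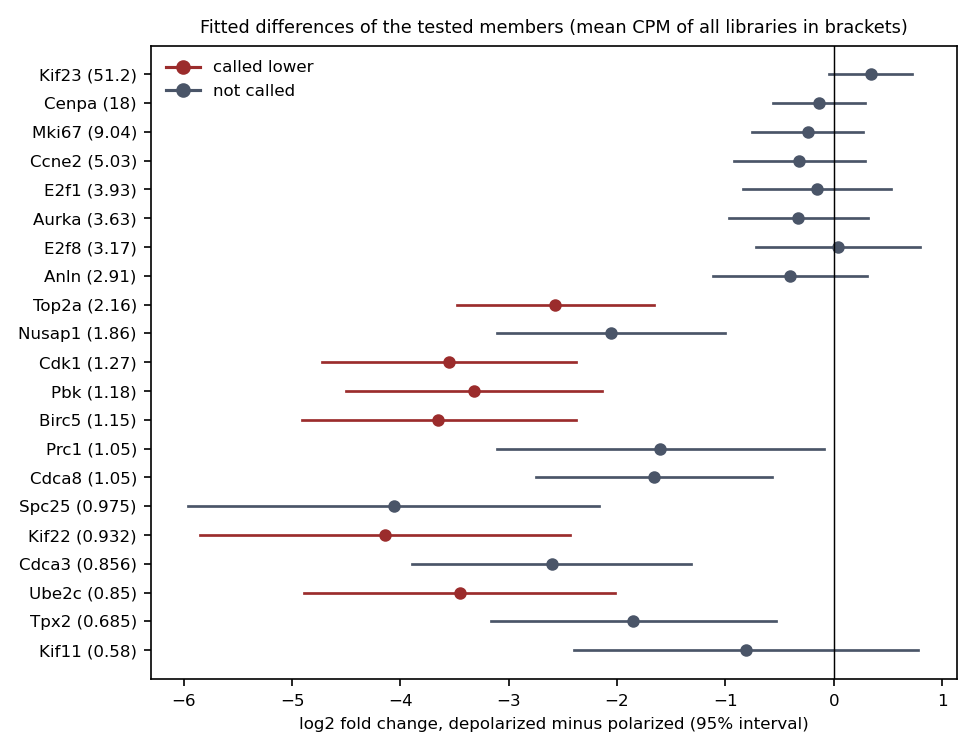
Fitted log2 fold changes (depolarized minus polarized) of the 21 tested members with 95% intervals, ordered by mean CPM, which stands in brackets. Red members were called lower; the intervals of the 8 most abundant members all include 0, from Kif23 (0.34) to Anln (-0.40), and those of the called members end at -1.66 or lower.

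Intervals show how closely the abundant members are bounded. Their lower limits ran from -0.04 (Kif23) to -1.11 (Anln) on the log2 scale, so a fall as large as that of Top2a lies outside all 8. A smaller difference is within the intervals of each, and missing the threshold does not show that their levels were equal. Ratios within a library, which do not depend on depth, gave the same contrast: per 100 counts of Cenpa, Cdk1 had 6.87, 7.10 and 26.5 counts in polarized and 1, 0.538 and 1.90 in depolarized cells. Top2a had 16.2, 5.92 and 42.4 per 100 counts of Cenpa against 3.68, 1.61 and 5.08. Such ratios show unequal differences, and not which of the 2 genes stayed the same.

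**Figure D3:**
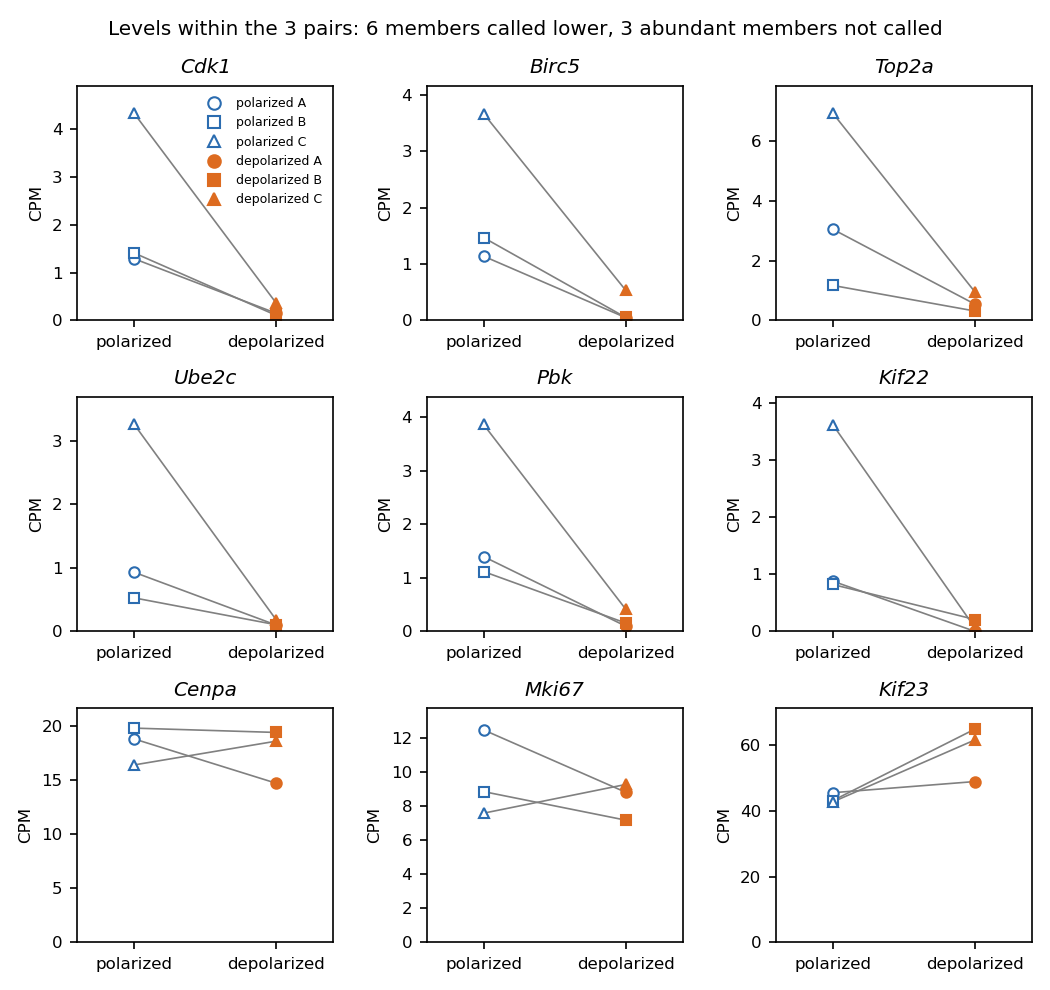
CPM of 9 members in the polarized and depolarized library of each pair, joined by lines, on linear axes from 0. The 6 called members drop in each pair, with the polarized library of pair C highest, whereas Cenpa and Mki67 cross and Kif23 is higher in depolarized cells, at 49.0 to 65.0 CPM.

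Within the pairs, the direction of the scarce members was shared and the size was not. Differences within a pair are given on the log2(CPM + 0.5) scale, which understates those of scarce genes. Over the 28 scarce members the medians were -0.88, -0.68 and -1.72, and 27, 26 and 27 of them were below 0. For Cdk1 the differences were -1.47, -1.66 and -2.50, for Birc5 -1.58, -1.83 and -2.01, and for Kif22 -1.46, -0.90 and -2.88. The 8 abundant members had medians of -0.35, -0.04 and -0.04. Without pair C, 5 of the 6 called members were still called: Cdk1 was fitted at -3.34, Birc5 at -4.5, Pbk at -3.23, Top2a at -2.21 and Kif22 at -3.11. Ube2c, fitted at -2.73, was lost (edgeR adjusted p 0.0522), and Spc25 was added. That fit called 5.13% of all genes lower. Without pair A, Ube2c fell below the filter and Bub1, Ccnb2, Cdca3, Nusap1 and Spc25 were added to the other 5 (0.737% of genes lower, 0.249% higher). Without pair B, Cenpf, Nusap1, Prc1 and Spc25 were added to all 6 (0.358% of genes lower, 0.0895% higher).

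Granule genes of early neutrophil stages also had lower mean levels in depolarized cells. Mpo, the myeloperoxidase gene of promyelocytes, was at 13.4, 19.8 and 146 CPM in polarized and 0.294, 0.208 and 5.86 CPM in depolarized cells, and Elane at 13.1, 39.2 and 109 CPM against 0.147, 0.104 and 5.09 CPM. Like the scarce members, both were highest in the polarized library of pair C. Of 13 early-stage markers found, 13 had a lower mean in depolarized cells and 9 were called lower. They summed to 17604.2, 31440.2 and 25795.5 CPM in polarized and 13397.3, 17721.9 and 9830.4 CPM in depolarized libraries. These sums overlapped between the groups and were highest in polarized B. Most of the sum there was Ngp (18100.7 CPM) and Lcn2 (8141.4 CPM), so it says little of the scarcer markers. Prtn3, Ctsg, Ms4a3, Fcnb, Chil3 and Ltf were highest in polarized C, as Mpo and Elane were. Camp, Ngp, Lcn2 and Cebpe were highest in polarized B, and Gfi1 in polarized A. The 14 erythroid markers summed to 42.6 to 68.2 CPM in polarized and 32.7 to 101 CPM in depolarized cells, with 0 called and Epor at 0 counts. The 12 B lineage markers summed to 5.0 to 12.5 against 2.55 to 7.24 CPM with 0 called and Vpreb1, Pax5, Rag1, Rag2 and Dntt each under 10 counts. The 10 stem and progenitor markers summed to 6.31 to 9.22 against 7.19 to 8.73 CPM with 0 called. The 10 T and NK cell markers summed to 24.1 to 29.6 against 16.7 to 23.6 CPM, without overlap and highest in polarized C. Of these 1 was called lower, the cytotoxic granule gene Nkg7, with 42, 45 and 230 counts against 1, 1 and 12. The 9 monocyte markers summed to 896, 1008.4 and 1176 CPM in polarized and 903, 819 and 817 CPM in depolarized cells, highest in polarized C, with 0 called. Most of these sums was Ly6c2, at 781, 903 and 1060.6 CPM against 735, 651 and 657 CPM. Of the 9 monocyte markers, 6 had a lower mean in depolarized cells. Ccr2, a chemokine receptor, held 30, 25 and 22 counts against 1, 0 and 9. Irf8, a factor of monocyte and dendritic cell fate, held 20, 20 and 24 against 4, 3 and 8. Both were without overlap (edgeR adjusted p 0.139 and 0.212). Csf1r lay the other way without overlap, at 112, 102 and 105 CPM in polarized and 168, 166 and 157 CPM in depolarized cells. Cx3cr1 held 3, 1 and 5 counts against 4, 14 and 9, higher in depolarized cells in each pair. The 10 macrophage markers summed to 99.5 to 125 against 114 to 155 CPM with 0 called, although 9 of the 10 had a lower mean in depolarized cells. Adgre1, the exception, was the largest part of these sums, at 103, 59.1 and 72.9 against 130, 103 and 106 CPM. C1qb, Axl and Vcam1 had edgeR adjusted p values of 0.351, 0.305 and 0.333. Sums were 21.3 to 96.9 against 28 to 73.8 CPM for 6 plasma cell markers and 51.8 to 487 against 62.0 to 210.0 CPM for 12 eosinophil and basophil markers. For 9 dendritic markers they were 14.4 to 21.7 against 22.8 to 41.1 CPM, higher in depolarized cells without overlap. The largest part of the depolarized sums was Itgax, at 10.9, 13.6 and 6.22 CPM in polarized and 17.2, 20.5 and 27.9 CPM in depolarized cells. Of the 9 dendritic markers, 2 had a lower mean in depolarized cells. Each of these lists had 0 called. The part of these cell types in the members' difference was not tested.

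**Figure D4:**
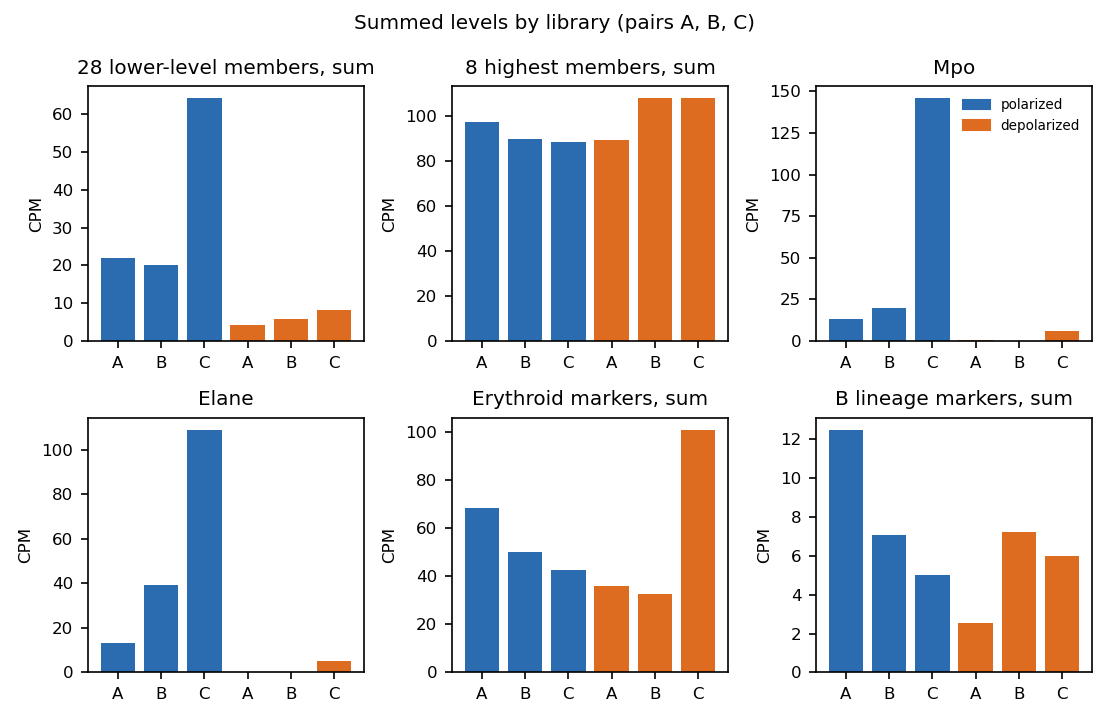
Summed CPM per library of the 28 scarce members, the 8 abundant members, erythroid and B lineage markers, with Mpo and Elane as genes of early neutrophil stages, polarized in blue and depolarized in orange. The scarce members, Mpo and Elane peak in the polarized library of pair C (64.3, 146 and 109 CPM), and the other 3 sums drawn do not. Of the marker lists not drawn, those of T and NK cells, monocytes and mature neutrophils were also highest there. The early neutrophil list, whose sum is not drawn, was highest in the polarized library of pair B (31440.2 CPM), mostly through Ngp and Lcn2.

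Other genes of the cycle, from lists of its regulators and structural parts, gave no call. Of 143 listed genes 142 were in the tables and 91 were tested. By edgeR 0 were called in either direction, with 12 lower and 2 higher at an unadjusted p under 0.05, and DESeq2 and limma voom also called 0. Their median log2 fold change was -0.04, against 0.00 for all tested genes. The 18 G1 cyclins and kinases had a median of -0.23 (12 tested). Among them 2 had all polarized above all depolarized libraries, and 2 lay the other way. Cdk4, of the former, held 138 counts in polarized and 33 in depolarized cells (log2 fold change -1.82 ± 0.57, SE, edgeR adjusted p 0.351). In this list the D cyclin Ccnd3 was at 136 ± 7.94 and 122 ± 20.8 CPM (SD, n = 3), and Ccnd2 at 31.6 ± 8.09 in polarized and 51.5 ± 19.9 CPM in depolarized cells, without overlap of the groups and with an edgeR adjusted p of 0.320. Antiproliferative genes of the list of 13 CDK inhibitors were by far the most abundant of these lists: Btg1 was at 2262.5 ± 507 and 2567.2 ± 355 CPM and Btg2 at 1124 ± 72.5 and 1278.6 ± 51.7 CPM. Among 18 RB, E2F and DREAM genes, E2f2 was at 151 ± 21.1 and 154 ± 21.8 CPM and the histone-binding subunit Rbbp4 at 84.9 ± 5.39 and 105 ± 9.52 CPM. Medians were -0.03 for 33 other kinetochore and checkpoint genes (16 tested), 0.00 for 18 cohesin, condensin and separase genes (15 tested) and 0.00 for 17 other APC/C genes (15 tested).

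The list of 26 other spindle and cytokinesis genes came nearest to the members, with a median of -0.74 over 11 tested genes and 11 of 26 genes with polarized libraries wholly above depolarized ones, against 2.85% of genes with a count. Divided at the level that divides the members, 75 of the other cell cycle genes with a count had a mean of up to 2.16 CPM. Of these 60 had a lower mean in depolarized cells (80.0%, against 48.9% of all genes at that level), 20 had all polarized above all depolarized libraries (26.7%, against 3.06%), 0 lay the other way and 55 overlapped. Examples, chosen after their values were seen, include genes on both sides. Spc24, the partner of Spc25, had 54 counts in polarized and 0 in depolarized cells. That is 18.2-fold lower by the floor of 3 counts, with an exact binomial lower limit (95%) of 14.3-fold. Fbxo5, an inhibitor of the APC/C, had 56 and 1, Kif20b 67 and 3 and Cep55, which acts at abscission, 44 and 2. All 4 were below the filter. Ect2, which activates RhoA for the contractile ring, had 44 and 45 counts, and Mybl2, which encodes B-MYB, 16 and 11, both overlapping. Above that level, 28 of 67 genes had a lower mean in depolarized cells (41.8%, against 39.8% of all genes), 3 had the polarized libraries wholly above and 6 the depolarized ones. The 3 were the checkpoint gene Mad2l1 (7.98 ± 0.516 and 5.07 ± 1.70 CPM), the transcription factor gene Myb (7.51 ± 1.39 and 3.53 ± 1.70 CPM) and the kinase gene Cdk2 (21.1 ± 1.80 and 15.6 ± 1.10 CPM), with edgeR adjusted p values of 0.539, 0.127 and 0.591. Of the most abundant genes, the checkpoint gene Bub3 was at 82.0 ± 6.15 and 88.0 ± 4.57 CPM, Cenpl at 24.0 ± 4.52 and 24.7 ± 2.59 CPM, the tubulin gene Tubb5 at 89.4 ± 22.5 and 106 ± 22.5 CPM, and Arhgap11a at 19.5 ± 6.19 and 24.6 ± 3.56 CPM. The cohesin genes Wapl (131 ± 27.3 and 114 ± 14.7 CPM) and Stag2 (110 ± 35.6 and 128 ± 15.1 CPM) and the APC/C genes Anapc2 (41.9 ± 10.6 and 48.3 ± 7.25 CPM) and Anapc11 (40.7 ± 4.75 and 47.2 ± 2.88 CPM) were not called either.

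Promoters were compared because mitotic genes share regulatory elements. RefSeq's table for build GRCm38.p6 gave the 250 bases before and 50 after the annotated start for 29 of the 36 members. The windows were searched on both strands for the CHR (TTTGAA or TTCGAA), the CCAAT box, 4 forms of the E2F letters and GGCGGG. The first E2F form was TTCGCGC, another was TTGGCGC, the next was TTCCCGC and the last was TTGCCGC. E2F letters can overlap a CCAAT box read on the other strand or GGCGGG. The CHR letters were in 23 of 29 members (79.3%), against 16.1% of the 7471 tested genes with a promoter and 21.7% of all 27025 genes. CCAAT was also in 23 of 29, against 42.7% of tested genes, and both together were in 21 of 29 (72.4%), against 6.6%. E2F letters were in 5 of 29 (17.2%), against 19.4%, and GGCGGG in 24 of 29 (82.8%), against 67.2%. The CHR letters were in 4 of the 5 called members that have a promoter in the table. They were also in 11 of 13 that were tested and not called, among them Kif23, Cenpa and Mki67. These 13 had fitted log2 fold changes from 0.34 (Kif23) to -4.06 (Spc25), so the split by call is not one by size of difference. Whether the CHR goes with the difference was not tested. A match to these letters is a description and not evidence of binding.

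The 120 bases before the start are shown for the 5 called members in the table and for 2 abundant members with CHR letters upstream, so that the called and uncalled promoters can be set side by side. Capitals mark CHR and CCAAT matches on either strand (TTCAAA and ATTGG are their reverse forms), and each sequence runs 5′ to 3′ on the gene's strand and ends at the base before the start. The windows lie at chr10:69352913-69353032 (Cdk1, minus), chr11:99024190-99024309 (Top2a, minus), chr2:164769809-164769928 (Ube2c, plus), chr7:127042421-127042540 (Kif22, minus), chr11:117849117-117849236 (Birc5, plus), chr7:135716380-135716499 (Mki67, minus) and chr7:48881597-48881716 (E2f8, minus).
Cdk1: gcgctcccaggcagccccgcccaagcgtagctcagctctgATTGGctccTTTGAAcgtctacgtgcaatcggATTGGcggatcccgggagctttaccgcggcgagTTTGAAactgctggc
Top2a: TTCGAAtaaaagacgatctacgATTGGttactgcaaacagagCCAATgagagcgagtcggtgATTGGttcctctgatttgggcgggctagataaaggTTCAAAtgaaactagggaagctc
Ube2c: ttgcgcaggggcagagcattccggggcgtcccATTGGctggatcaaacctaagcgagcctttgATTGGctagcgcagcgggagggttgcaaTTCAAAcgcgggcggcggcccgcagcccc
Kif22: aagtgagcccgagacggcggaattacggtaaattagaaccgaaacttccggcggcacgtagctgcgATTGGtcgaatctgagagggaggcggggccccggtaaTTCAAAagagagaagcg
Birc5: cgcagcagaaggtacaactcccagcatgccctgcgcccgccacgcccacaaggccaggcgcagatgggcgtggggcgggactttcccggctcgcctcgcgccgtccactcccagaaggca
Mki67: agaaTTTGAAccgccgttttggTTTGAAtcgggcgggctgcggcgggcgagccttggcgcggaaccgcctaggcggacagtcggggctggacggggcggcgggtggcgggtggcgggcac
E2f8: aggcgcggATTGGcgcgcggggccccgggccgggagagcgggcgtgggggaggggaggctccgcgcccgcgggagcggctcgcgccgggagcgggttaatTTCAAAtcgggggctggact
The called members Cdk1, Top2a, Ube2c and Kif22 have CHR letters that begin 15, 23, 29 and 17 bases before the start, besides others farther upstream in Cdk1 and Top2a, each with CCAAT letters further upstream. Those of E2f8, which was not called, begin 20 bases before the start, and those of Kif23 and Cenpa 2 and 16 bases after the first transcribed base. Mki67 has its CHR letters farther away, at 116 and 98 bases, and Birc5 has neither CHR nor CCAAT letters in this window although it fell.

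**Figure D5:**
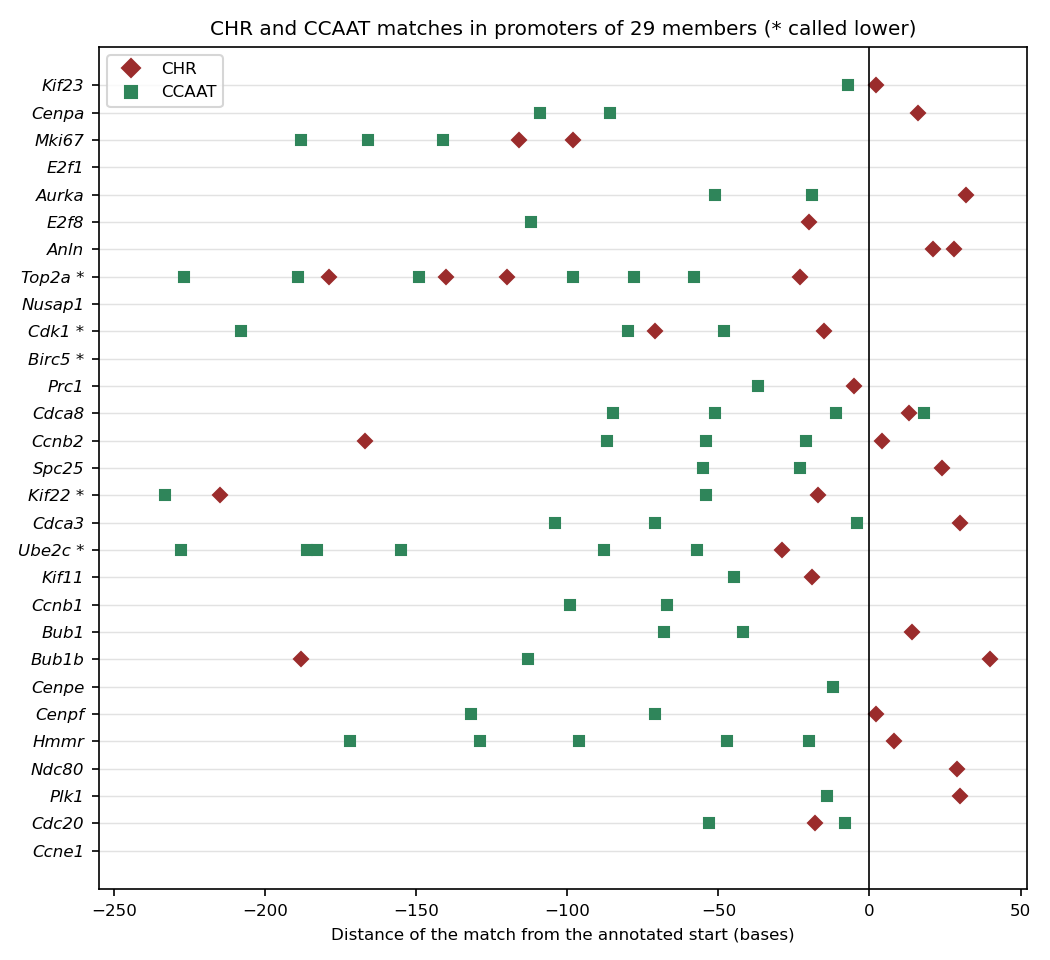
Positions of CHR (red) and CCAAT (green) matches on either strand in the promoter windows of 29 members, as the distance of the first base of each match from the annotated start, with members ordered by mean CPM. Of the called members (asterisks), Cdk1, Top2a, Ube2c and Kif22 have a CHR match 15 to 29 bases before the start, and Cdk1, Top2a and Kif22 have others farther upstream. Kif23 and Cenpa have one 2 and 16 bases after it, and Birc5, E2f1, Nusap1 and Ccne1 have neither.

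Exon overlap limits a few of the counts, since the sources used here do not state whether counting used strand. Of the called members, Cdk1, Birc5, Pbk and Kif22 share no exon base with another gene of GENCODE M21, and Top2a shares 1.35% with a snoRNA gene that had 0 counts. The abundant members Kif23, Cenpa, Mki67, E2f1, Aurka and Anln share none either. Ccne2 has 17.4% of its exon bases opposite Ints8 (698 counts) and E2f8 11.2% opposite Gm2788 (258 counts). Among the scarce members, Cdc20 has 2.84% opposite Elovl1, which held 22040 counts, Ccna2 14.5% opposite Exosc9 (275 counts) and Prc1 11.1% opposite Rccd1 (2 counts).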

How the data were processed

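RNA of sorted bone marrow neutrophils was made into cDNA with a low-input SMARTer kit, per the labels' protocols. Per the submitters' processing notes, bcl2fastq, STAR (2.0.4b), Subread and featureCounts (1.45) were used with build GRCm38; annotation release, strand setting and handling of multiply mapped reads are unstated in them. The deposited tables hold a raw count per gene, a CPM (count scaled to the library total, made by the authors) and an RPKM (deposited CPM per kilobase of listed length). Recomputed CPM differed from the deposited ones by at most 4.8e-10. Symbols matched 40254 of 41388 genes.

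Counts were fitted in R 4.3.3 with edgeR 4.0.16: filterByExpr by group (9971 genes), TMM scaling, and the quasi-likelihood F test with the pair as a block plus the group, Benjamini-Hochberg adjusted over all genes tested, with 2 residual degrees of freedom. A negative log2 fold change means lower in depolarized cells. Standard errors are the absolute log2 fold change over the root of F. The p-values and 95% intervals use the fit's total degrees of freedom (median 16.7), most of which are borrowed from other genes. The pairing rests on the series' design text. Deviations from group means correlated within pairs at r of 0.075 (A), 0.27 (B) and 0.033 (C) across genes, so the values show little of it. Between libraries of different pairs r ran from -0.215 to 0.135. The highest of these, polarized C with depolarized A, was above the r within pairs A and C. Sampling noise did not account for the spread within groups (chi-square per degree of freedom 29.1 to 100.0). Where it is not stated that cells came from separate mice, p-values of the blocked fit measure the spread of the differences within these pairs of libraries. That spread is moderated across genes. Detection floors are 3 counts over a group (0.0536 CPM polarized, 0.0531 CPM depolarized), and ratios to a floor take the counts of the other group as exact. Floors and intervals cover counting error only. Alternatives used DESeq2 1.42.0, limma 3.58.1 (voom), other filters and scaling, and left out each pair; the fit was tested on simulated data. The members, lists and tests were chosen with earlier results of these data known. All members could be named, and from other lists the called genes and the 2 most abundant uncalled ones. Racgap1, Spc24, Fbxo5, Kif20b, Cep55, Ect2, Mybl2, Mad2l1, Myb, Cdk2 and Cdk4 were named outside this rule, after their values were seen. The listed gene Skp1 was not analysed here. Exons were compared with GENCODE M21 and promoters taken from RefSeq (GRCm38.p6).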

Additional observations from a re-analysis of the deposited data

How the results depend on the processing

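The count of 6 members lower was also 6 with RLE size factors, DESeq2 with or without the replicate block and robust edgeR, each with the same 6 genes, and 7 with limma voom. It became 0 with no replicate block, 12 with no filter on low counts (36 members tested), 0 with a mean of at least 5 CPM (4 members tested) and 7 with a mean of at least 0.5 CPM, a filter chosen after seeing the data. Leaving out 1 pair gave 6 to 10. Members higher numbered 0 to 1 without a pair. For all genes, 24 lower and 8 higher became 0 and 0 with no replicate block, 96 and 50 with no filter, 7 and 6 with a mean of at least 5 CPM, and 36 to 518 lower and 9 to 500 higher without 1 pair. Calls of higher genes were 16 with DESeq2 and the block, 5 with DESeq2 without it, and 18 with a mean of at least 0.5 CPM. Other cell cycle genes called lower rose from 0 to 9 of 142 with no filter (0.437% of all genes) and to 2 of 96 with a mean of at least 0.5 CPM (0.341%). Without pair A 8 of 98 were lower and 0 higher (0.737% and 0.249% of all genes). Without B it was 1 of 97 lower and 0 higher (0.358% and 0.0895%). Without C 4 of 90 were lower and 4 higher, in a fit that called 5.13% of all genes lower and 4.95% higher. The median over tested members, -1.66, became -2.19 with no filter, -0.19 with a mean of at least 5 CPM, and -2.54 to -1.52 without 1 pair; other genes are tested in each. Fitted values of uncalled genes changed sign without a pair in E2f1 (range -0.48 to 0.15), E2f8 (-0.36 to 0.40) and Anapc2 (-0.06 to 0.31), with the sign changed without C, E2f2 (-0.10 to 0.04) and Bub3 (-0.05 to 0.14), without A, and Cenpl (-0.09 to 0.03), without A (0.01) and without C. With a pseudocount of 0.1 the median differences within pairs A, B and C were -1.48, -1.15 and -2.42 over all members and -1.93, -1.48 and -2.62 over the 28 scarce ones, and with 1 the last was -1.21. Scaling by TMM moved no sum by more than the spread or 1.5 times. With 150 bases before the start, CHR and CCAAT letters were still in 23 of 29 members each. Members with E2F letters went from 5 to 4 and those with GGCGGG from 24 to 19. The share of tested genes with CHR letters fell from 16.1% to 9.38%, and with both CHR and CCAAT from 6.6% to 3.13%. Below about 1 CPM, a few counts in 1 library decide a value, and 15 members could not be tested.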
